A study of Mus musculus with 6 samples.

Results

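CTCF binding was described at the 4 Hox gene clusters of the mouse genome, from intervals that the authors called in muscle stem cells. An interval was taken when its midpoint lay in an mm9 range that holds a cluster and about 0.5 Mb on each side. The ranges were chromosome 6 from 51.6 to 52.7 Mb for HoxA, chromosome 11 from 95.5 to 96.7 Mb for HoxB, chromosome 15 from 102.2 to 103.4 Mb for HoxC, and chromosome 2 from 74 to 75.1 Mb for HoxD. They held 151 of the 36923 deposited intervals, 67 of 19403 in the quiescent list and 84 of 17520 in the freshly isolated list. Around 38 Hox genes these ranges make up 4.6 Mb.

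Both groups were skeletal muscle stem cells of C57BL/6 mice with the Pax7-nGFP genotype at postnatal day 38. One group was quiescent (QSC) and the other freshly isolated (FISC), a step that is known to start activation of these cells. How the quiescent state was kept during isolation is not stated in the labels. Each state has 2 CTCF ChIP libraries and 1 input library, and 1 list of intervals is given per state. No value therefore has a replicate error, the depth behind each list is unknown, and a site missing from a list is a site that was not called there. The lists hold no height, score or gene name, so neither the strength of binding nor the identity of the cells by marker genes could be checked.

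Hox genes encode homeodomain transcription factors that set position along the body axis, and each cluster is arranged in the order in which its genes are used along that axis. Muscle stem cells keep part of this positional Hox expression into adult life, and Hoxa9 has been linked to the decline of aged muscle stem cells. CTCF is a zinc finger protein that, with cohesin, anchors chromatin loops. Within Hox clusters it is known to lie at borders between active and Polycomb-silenced genes, and the flanks of HoxA and HoxD hold long-range enhancers of the clusters.

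The genes were ordered with the RefSeq table of GRCm38, which differs from the build of the intervals and was used for order only. With rising coordinate HoxA runs from Hoxa2 to Hoxa13, whereas HoxB runs from Hoxb13 to Hoxb1, HoxC from Hoxc13 to Hoxc4 and HoxD from Hoxd13 to Hoxd1. The next named protein-coding genes are Skap2 and Evx1 around HoxA, Ttll6 and Skap1 around HoxB, Calcoco1 and Smug1 around HoxC, and Evx2 and Mtx2 around HoxD. Because positions of single genes in mm9 were not used here, no interval was assigned to a single Hox gene.

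Of the 38 Hox genes, 22 had promoter windows in the RefSeq table of GRCm38.p6, 24 windows of 300 bases in all. These windows were searched on both strands for the core of the CTCF motif, written as CC, any base, C, any base, AG, 2 of any base and GGC. A match was found in 1 of the 24 windows (4.17%), against 800 of 32851 promoter windows of all genes (2.44%). The window belongs to Hoxc4, the last gene of its cluster, and is shown as the only Hox promoter in the table with these letters. The 250 bases before the Hoxc4 start on the plus strand of chromosome 15 are printed 5′ to 3′, with the match, which reads on the opposite strand, in capitals.
Hoxc4: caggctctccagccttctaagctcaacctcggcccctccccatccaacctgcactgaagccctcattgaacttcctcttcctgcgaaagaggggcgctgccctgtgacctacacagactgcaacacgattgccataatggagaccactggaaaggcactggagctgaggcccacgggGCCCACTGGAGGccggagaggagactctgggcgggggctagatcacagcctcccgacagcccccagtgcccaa
A match is a description of the letters and not a measured site. Whether any listed interval covers this promoter was not tested, and sequences of the intervals themselves were not used here.

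Shared intervals are those with an overlap of 1 bp or more with the other state's list, and all others are called QSC-only or FISC-only after their list. Overlapping intervals were merged into 115 sites, of which 36 were shared, 31 QSC-only and 48 FISC-only. Of the 67 QSC intervals 53.7% were shared (95% Wilson interval 41.9 to 65.1), against 37.8% of the whole QSC list. Of the 84 FISC intervals 42.9% were shared (32.8 to 53.5), against 41.8% of the whole FISC list. The QSC share differed between the ranges, with 67.7% in HoxC and 53.8% in HoxB, and 33.3% in HoxA and 36.4% in HoxD, both below the whole list. HoxC alone gave 21 of the 36 shared intervals, so the pooled value is mostly that of HoxC. The FISC share was 52.5% in HoxC, 44.4% in HoxD, 36.4% in HoxA and 29.2% in HoxB. Wilson intervals cover counting error only, and the difference from the whole lists was not tested here, since neighbouring sites are not independent.

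HoxC was by far the richest range. It held 31 QSC and 40 FISC intervals, merged into 50 sites, of which 21 were shared, 10 QSC-only and 19 FISC-only. Only 11 of 2208 genome tiles of 1.2 Mb (0.498%), its own included, held as many sites, and the median tile held 11. HoxB held 13 QSC and 24 FISC intervals in 30 sites, with 7 shared, 6 QSC-only and 17 FISC-only. As many FISC-only intervals were found in 2.22% of the tiles of that length, whereas its 6 QSC-only intervals were reached or passed in 46.6% of them. HoxB was thus rich in FISC-only intervals while its QSC-only number was close to the tile median of 5.

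HoxA and HoxD were sparser and had about equal numbers in the 2 lists. HoxA held 12 QSC and 11 FISC intervals in 19 sites, with 4 shared, 8 QSC-only and 7 FISC-only. HoxD held 11 QSC and 9 FISC intervals in 16 sites, with 4 shared, 7 QSC-only and 5 FISC-only. Both lay above the median of 10 sites per 1.1 Mb tile, and 20.04% and 28.1% of 2405 such tiles held as many sites as HoxA and HoxD.

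**Figure D1:**
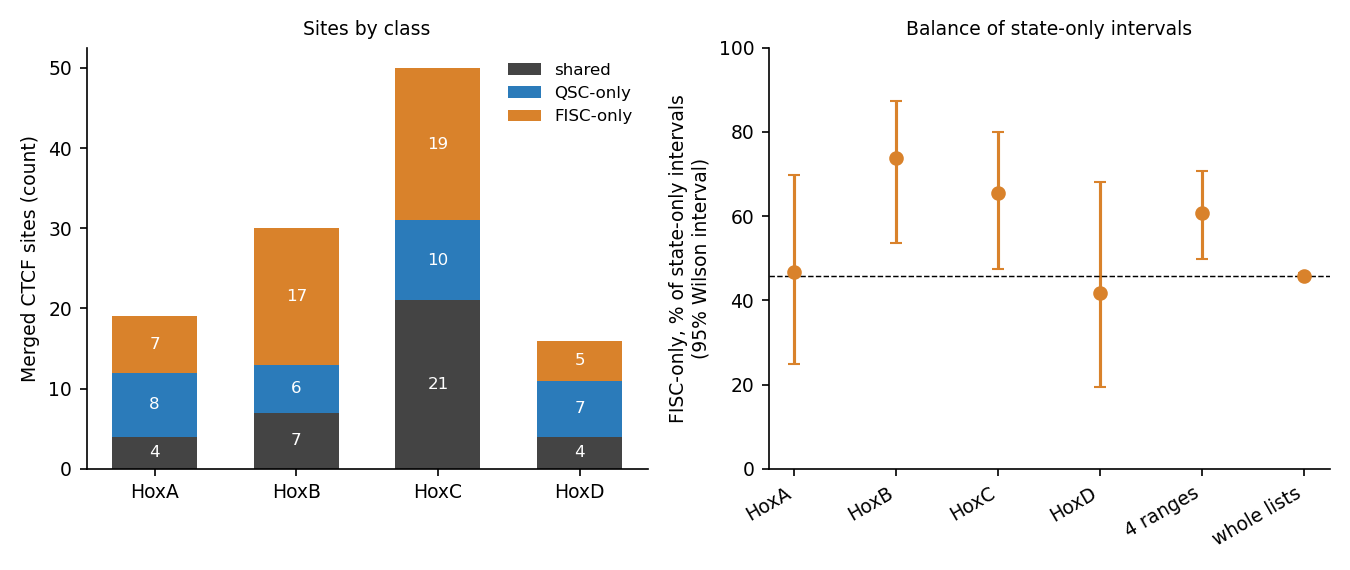
Left, merged CTCF sites per Hox range by class (shared, QSC-only, FISC-only; counts in the bars). Right, FISC-only intervals as a percentage of state-only intervals with 95% Wilson intervals, for each range, the 4 ranges together and the whole lists (dashed line, 45.8%); HoxB and HoxC lie above the line and HoxA and HoxD close to it.

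The 4 ranges were first compared with each other. Shared sites made up 42% of the sites of HoxC, 25% in HoxD, 23.3% in HoxB and 21.1% in HoxA. FISC-only sites made up 56.7% in HoxB, 38% in HoxC, 36.8% in HoxA and 31.2% in HoxD. The QSC-only share was 20% in both HoxB and HoxC, and 42.1% and 43.8% in HoxA and HoxD. The class make-up of the 115 sites did not pass the Fisher-Freeman-Halton exact test across the ranges (p = 0.139). None of the 18 comparisons of 1 class between 2 ranges passed Fisher's exact test, with a lowest adjusted p of 0.377 (Benjamini-Hochberg, BH) and none with an unadjusted p under 0.05. With 0.25 Mb on each side in place of 0.5 Mb the test across the ranges gave an exact p of 0.041. The 95% Wilson interval of the FISC-only share was 39.2 to 72.6 in HoxB and 14.2 to 55.6 in HoxD, so differences of considerable size were not detectable with these numbers.

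Each range was next compared with the rest of the genome, as 1 tile among all tiles of its length with at least 10 state-only intervals, by Fisher's exact test (two-sided, BH over all tiles). The test takes intervals as independent, which neighbours are not, and it compares 2 lists and not replicated states, so its p-values are too small and its intervals too narrow. In HoxB 17 of 23 state-only intervals were FISC-only (73.9%, 95% Wilson interval 53.5 to 87.5), against 45.8% in the whole lists. The odds ratio of FISC-only over QSC-only was 3.36 (95% interval 1.26 to 10.4; exact p = 0.0103, adjusted p = 0.229). In HoxC 19 of 29 were FISC-only (65.5%, 47.3 to 80.1), an odds ratio of 2.25 (0.996 to 5.43; exact p = 0.0396, adjusted p = 0.363). HoxB and HoxC thus held more FISC-only than QSC-only intervals, and neither passed the adjusted test. Neighbouring tiles of 1.2 Mb leaned the same way. The tile below HoxB held 15 FISC-only and 5 QSC-only intervals, and the tile above it 26 and 7. The tile below HoxC held 19 and 7. The lean was thus not limited to the Hox ranges. The number of sites in a tile did not enter this comparison.

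HoxA and HoxD held about as many of one class as of the other. In HoxA 7 of 15 state-only intervals were FISC-only (odds ratio 1.04, 0.320 to 3.27), and in HoxD 5 of 12 (0.846, 0.212 to 3.10), each with an exact and adjusted p of 1. The number of Hox ranges that passed the adjusted exact test was 0 of 4, against 0.104% of the 961 tiles of 1.1 Mb and 0.589% of the 1019 tiles of 1.2 Mb tested. At an unadjusted exact p under 0.05 it was 2 of 4, against 10.9% and 12.5% of the tiles. The intervals of the odds ratios for HoxA and HoxD reach from below 0.4 to above 3, so an imbalance as large as that of HoxC lies within them.

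The HoxB value changed with the amount of flank, in no single direction. With 0.25 Mb on each side 84.6% of its state-only intervals were FISC-only, a log2 odds ratio of 2.45 against 1.67 with 0.5 Mb, and it did not pass the exact test (adjusted p = 0.19). With 1 Mb on each side, HoxB held 38 FISC-only and 10 QSC-only intervals, a log2 odds ratio of 2.12. It then passed the exact test among 1031 tiles of 2.2 Mb (adjusted p = 0.00327, 1.55% of tiles called). The range with 0.5 Mb on each side held 17 and 6 of these, so most of the FISC-only ones lay further from the cluster. In the wider 50% of each list the log2 odds ratio of HoxB fell from 1.67 to 0.86 (exact p = 0.238). That of HoxC fell from 1.14 to 0.52 (exact p = 0.502). The whole of chromosome 11 had the same direction as HoxB, with 55.03% of its state-only intervals FISC-only. Set against the rest of chromosome 11 only, the odds ratio of HoxB was 2.34 (0.875 to 7.31; exact p = 0.0894).

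**Figure D2:**
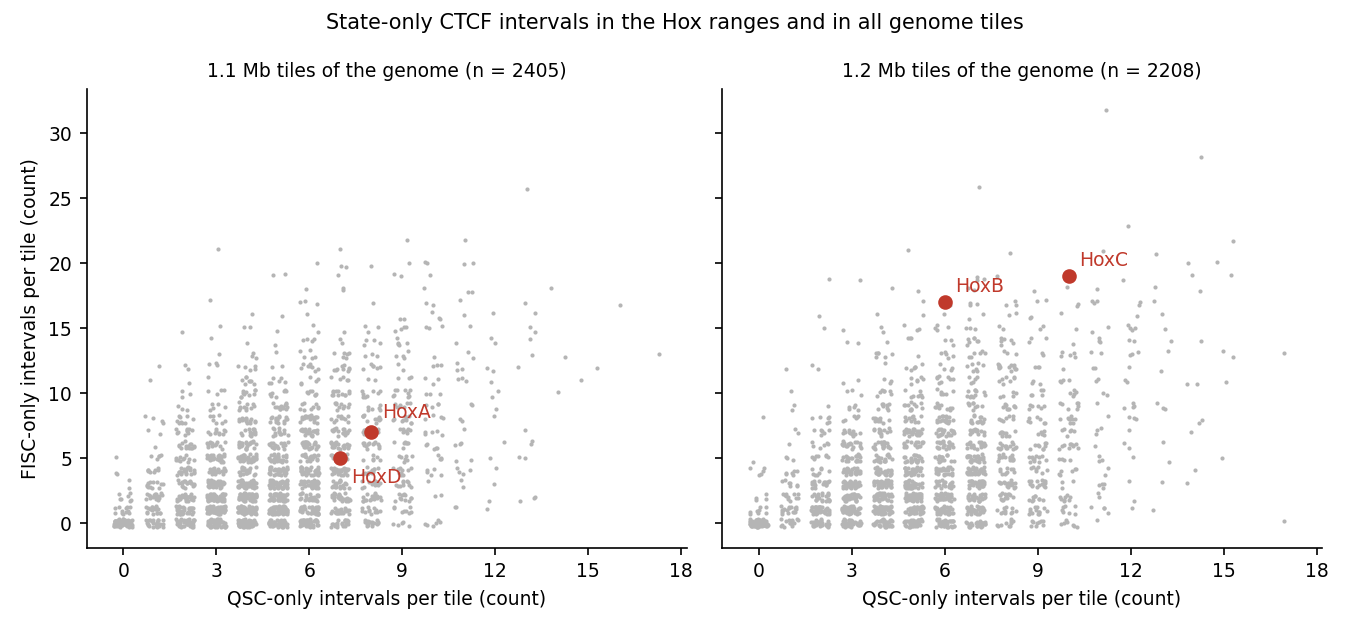
QSC-only (x axis) and FISC-only (y axis) intervals per genome tile, with 2405 tiles of 1.1 Mb on the left and 2208 tiles of 1.2 Mb on the right. Grey points are tiles, moved by up to 0.3 to part equal values; red points are the Hox ranges, with HoxB at 6 and 17 and HoxC at 10 and 19, high in the cloud, and HoxA and HoxD within it.

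Sharing was compared in the same way over merged sites. HoxC had the highest odds of a shared over a state-only site, 2.21 times those of the rest of the genome (95% interval 1.197 to 4.01; exact p = 0.0078, adjusted p = 0.26). The odds ratios were 0.812 (0.196 to 2.55) in HoxA, 0.927 (0.336 to 2.23) in HoxB and 1.02 (0.239 to 3.35) in HoxD, each with an adjusted exact p of 1. None of the 4 ranges passed the adjusted test and 1 of 4 had an unadjusted p under 0.05. Among tiles of 1.1 Mb the test called 1.1% adjusted and 10.5% unadjusted, and among tiles of 1.2 Mb 0.787% and 11.5%. HoxC therefore stood out by its number of sites, and its shared part was high against the genome without passing the adjusted test. Tiles with about as many sites were not compared as a group. Other 1.2 Mb tiles with at least 50 sites held, for example, 32 shared of 74, 25 of 52, 22 of 52, 19 of 52 and 16 of 59. The shared part of HoxC, 21 of 50, lay within the span of these examples.

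Next, sites were placed within each range. Inside stands for the range without 0.5 Mb on each side. It is 100 kb in HoxA and HoxD and 200 kb in HoxB and HoxC. It was taken in place of the gene cluster, and whether its ends match those of the cluster in mm9 was not checked. Sites were denser inside than in both flanks in 3 of the 4 ranges. HoxD had 60 sites per Mb inside, HoxA 50 and HoxB 40, whereas the flanks of these ranges had 8 to 22 and the genome as a whole 11.2. These densities rest on 6, 5 and 8 sites. As many sites were held by 1.56% and 3.36% of tiles of 100 kb for HoxD and HoxA, and by 3.65% of tiles of 200 kb for HoxB. HoxC was the exception, with 20 sites per Mb inside (4 sites, reached in 22.6% of tiles of 200 kb) and 46 in each flank. The richness of the HoxC range thus came from its flanks and not from the inside.

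**Figure D3:**
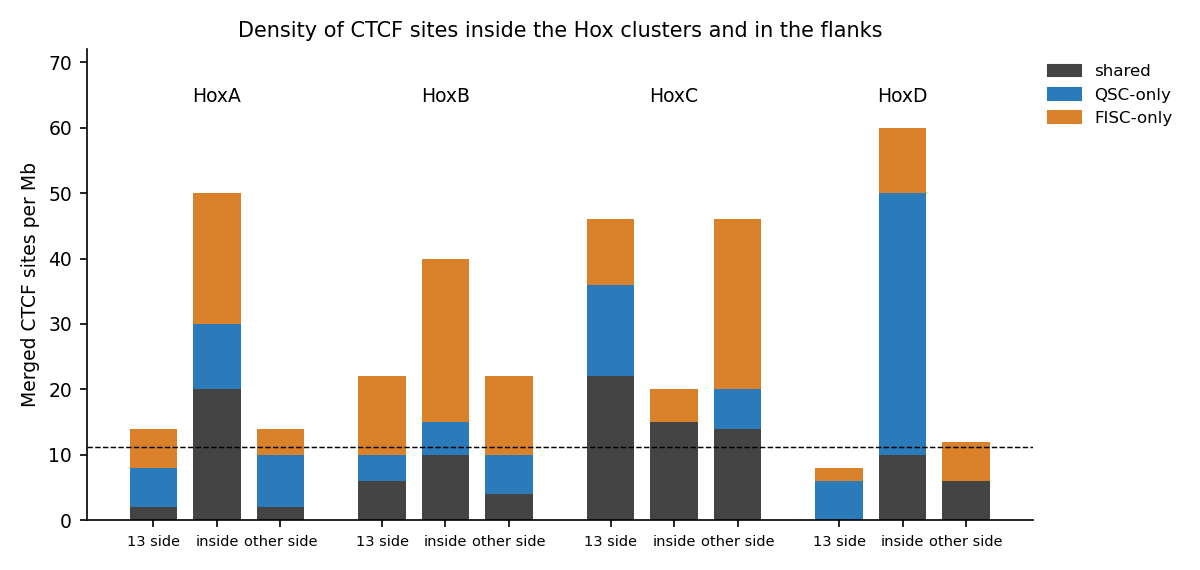
Merged CTCF sites per Mb in the inside of each range and in the 500 kb flanks on the side of the Hox13 gene and on the other side, by class. The dashed line is the mean of the genome, 11.2 sites per Mb; HoxA, HoxB and HoxD are highest inside, and HoxC is lowest inside.

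Inside HoxD, QSC-only sites stood in a row. The QSC list held intervals at chr2:74521842-74522134 (293 bp), chr2:74524404-74524806 (403 bp), chr2:74529611-74529882 (272 bp) and chr2:74536085-74536630 (546 bp), none of which had a FISC partner. These 4 sites spanned 14.8 kb, and 44 of 26382 genome tiles of 100 kb (0.167%) held 4 or more QSC-only intervals. Their widths varied within the QSC list, where 40.3%, 80.9%, 25.2% and 95.2% of intervals were no wider, in this order. Width is not a measure of the strength of binding. A FISC-only interval followed at chr2:74540186-74540584 (399 bp), and the only shared site inside lay at chr2:74553798-74554288, where the FISC interval was 450 bp and the QSC interval 415 bp wide. The row was singled out after its values were seen, and it was not tested against chance.

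Inside HoxB the balance was the opposite, with 5 FISC-only, 1 QSC-only and 2 shared sites. The FISC-only intervals lay at chr11:96006997-96007326, chr11:96059695-96059993, chr11:96101544-96101916, chr11:96122898-96123199 and chr11:96164346-96164778, with widths of 330, 299, 373, 302 and 433 bp. They were spread over the inside rather than in a row, and 1.58% of 13197 tiles of 200 kb held 5 or more FISC-only intervals. Of these 5, 3 were narrower than the FISC median of 372 bp. The shared sites lay between them at chr11:96096175-96096806 (632 bp in QSC, 399 bp in FISC) and chr11:96140133-96140465 (316 and 280 bp). The single QSC-only interval, chr11:96199121-96199396 (276 bp), lay at the Hoxb1 end of the inside.

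Inside HoxC all 3 QSC intervals had a FISC partner. The shared sites were chr15:102796815-102797271 (426 bp in QSC, 391 bp in FISC), chr15:102817852-102818178 (321 and 327 bp) and chr15:102843918-102844312 (395 and 276 bp). At the second of these the midpoints of both lists differed by 2 bp, the closest match of the 36 shared sites. A FISC-only interval of 451 bp lay on the Hoxc13 side of them at chr15:102773638-102774088. The 3 shared sites belonged to a run of 7 consecutive shared sites over 211 kb, from chr15:102796815 to chr15:103008106, with no state-only site between them. It was the longest run of 1 class in the 4 ranges by number of sites, while a run of 4 shared sites in HoxD spanned more, 423 kb.

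Inside HoxA the classes were mixed, with 2 shared, 2 FISC-only and 1 QSC-only site. From the Hoxa2 end, a QSC-only interval of 271 bp at chr6:52131293-52131563 came first. It was followed by FISC-only intervals of 410 bp at chr6:52154456-52154865 and 501 bp at chr6:52161504-52162004. Shared sites then lay at chr6:52171625-52172107 (276 bp in QSC, 483 bp in FISC) and chr6:52190325-52190829 (417 and 409 bp). The FISC-only intervals here were at or above the FISC median, and the QSC-only interval was below the QSC median of 310 bp. Another shared site and a QSC-only site lay within 50 kb of the Hoxa13 end of the inside, at 52220509 and 52207044.

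**Figure D4:**
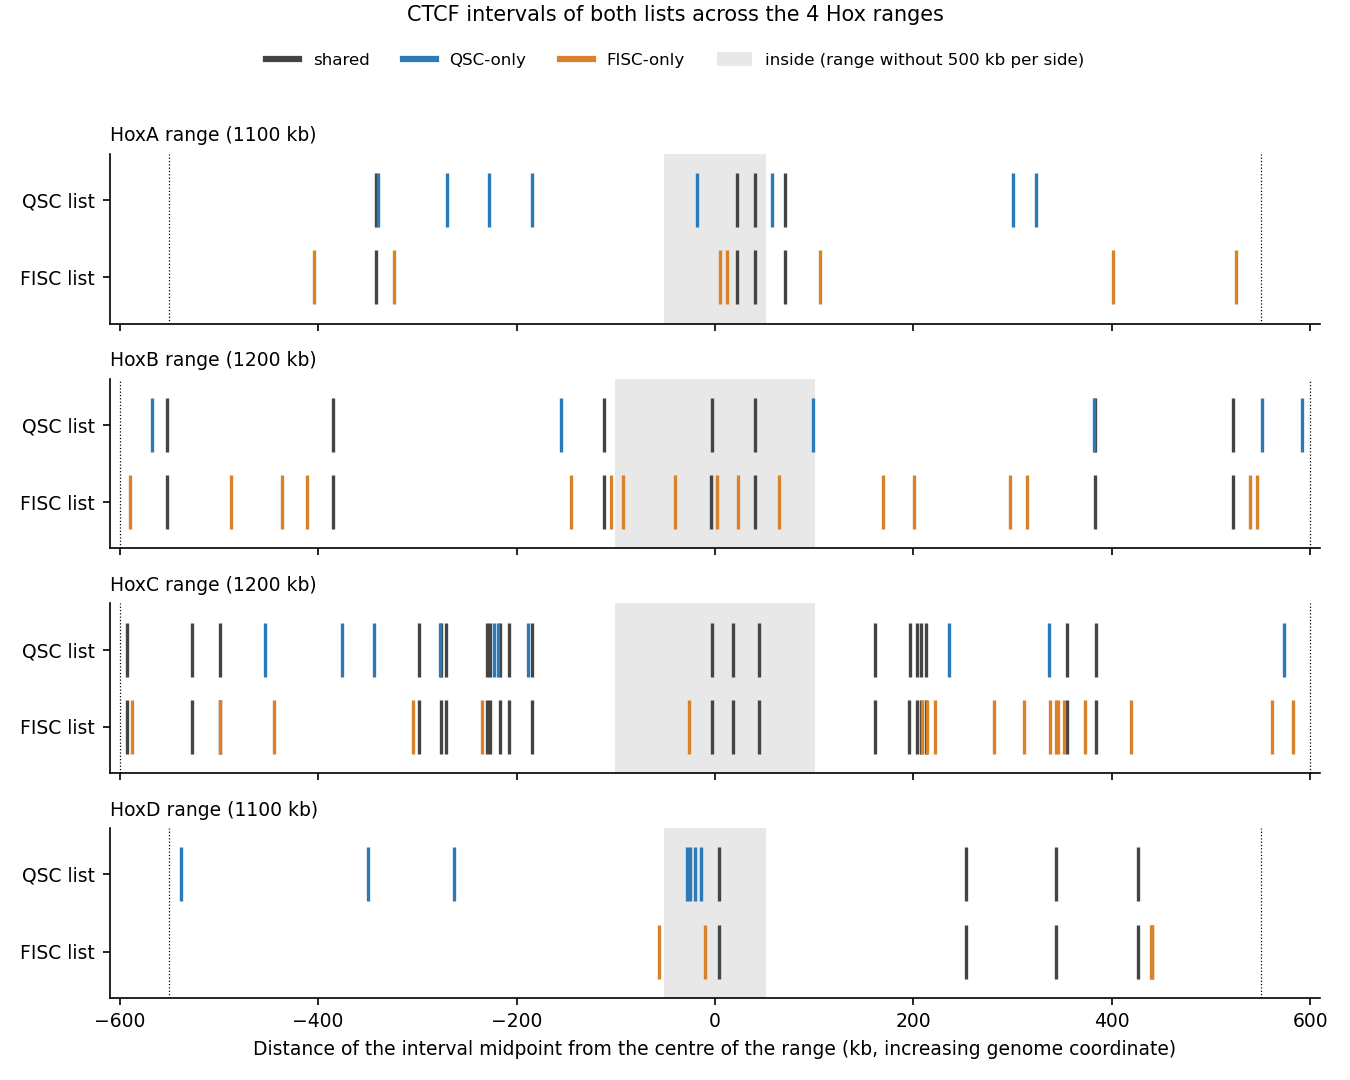
Positions of all 151 CTCF intervals as distance of the midpoint from the centre of each range (kb), with the QSC list above and the FISC list below in each panel, coloured by class. The grey band is the inside and dotted lines are the ends of the range; the row of 4 QSC-only intervals in HoxD, the 3 shared sites in HoxC and the dense HoxC flanks can be seen.

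The flanks also differed between ranges and between their ends. On the Hoxd13 side HoxD held 3 QSC-only and 1 FISC-only site and no shared site, and on the Hoxd1 side 3 shared, 3 FISC-only and no QSC-only site. In HoxC the Hoxc13 side held 11 shared, 7 QSC-only and 5 FISC-only sites, and the Hoxc4 side 7, 3 and 13. Thus the FISC-only sites of the HoxC range lay mostly in the flank on the Hoxc4 side, where 4 of them followed each other within 14.4 kb. The flanks of HoxB both leaned to FISC-only sites, with 6 of 11 on each side. The HoxA flanks held 1 shared site each, with 3 QSC-only and 3 FISC-only on the Hoxa13 side and 4 and 2 on the other. These counts are small, and the differences between ends were not tested.

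The widest flank intervals of each class were also compared with their own lists. The widest shared sites had 545 bp in QSC at chr6:51807699-51808243 near HoxA, 686 bp in QSC at chr11:96482095-96482780 near HoxB, 734 bp in FISC at chr15:103154038-103154771 near HoxC and 535 bp in FISC at chr2:74802355-74802889 near HoxD. Between 91.8% and 98.8% of the intervals of their lists were no wider. The widest FISC-only intervals were 652 bp at chr15:103145365-103146016, 579 bp at chr2:74493509-74494087, 557 bp at chr11:95612175-95612731 and 408 bp at chr6:52255852-52256259. The HoxD one lay just outside the inside, on the Hoxd13 side. The widest QSC-only flank intervals had 432 bp at chr11:96690820-96691251, 404 bp at chr6:51965266-51965669, 402 bp at chr15:102423548-102423949 and 308 bp at chr2:74286973-74287280. Against their own lists, whose medians differ, the HoxA QSC-only interval was the wider of the pair, with 81.1% of QSC intervals no wider against 64.1% of FISC intervals for the FISC-only one. In the other 3 ranges the FISC-only interval ranked higher, with 93.5% against 85.7% in HoxB, 97.6% against 80.7% in HoxC and 94.8% against 49.04% in HoxD. FISC-only intervals outnumbered QSC-only ones in the flanks of HoxB and HoxC, and group size was not allowed for. The ranking leaves out the inside, where HoxD held a QSC-only interval of 546 bp, with 95.2% of QSC intervals no wider.

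Width is the only other property that the lists give. In QSC the median width was 379 bp for the 36 shared intervals of the Hox ranges and 295 bp for the 31 QSC-only intervals, against 359 and 291 bp in the whole list. In FISC it was 399 bp for shared and 375 bp for the 48 FISC-only intervals, against 412 and 344 bp. Shared QSC intervals were thus wider than QSC-only ones, as in the whole list, while the gap between classes in FISC was smaller. In HoxB it turned around, with a median of 333 bp for the 7 shared and 405 bp for the 17 FISC-only intervals. Of these 17, 11 (64.7%) were at least as wide as the FISC median, against 38.3% of all FISC-only intervals. These medians are descriptions without a test, as intervals are not replicates.

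**Figure D5:**
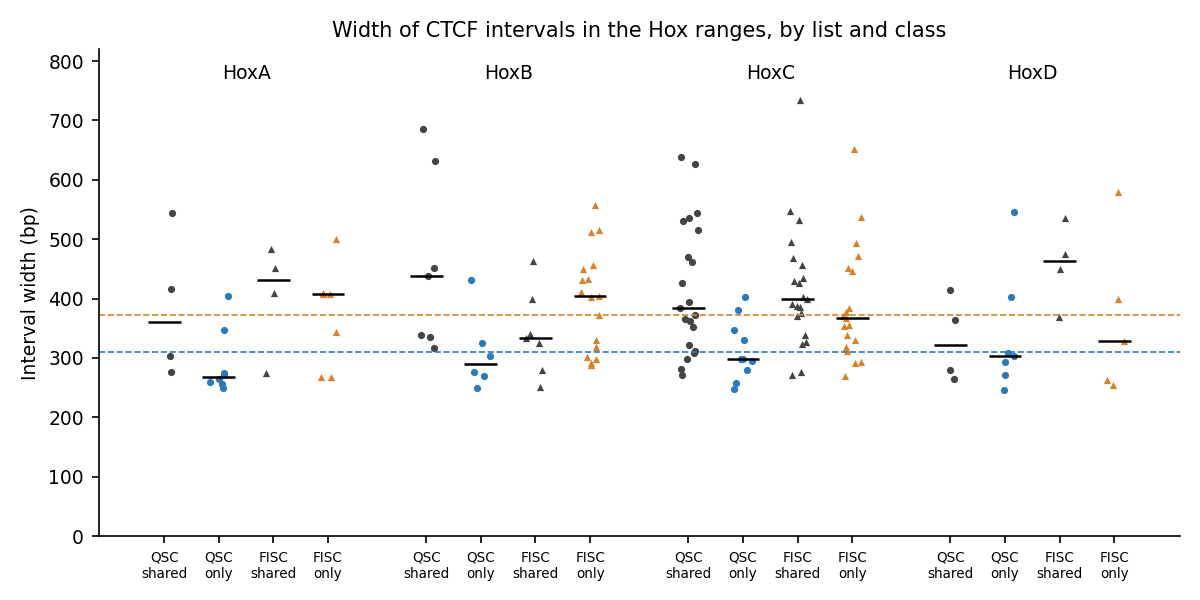
Width in bp of each interval in the Hox ranges by list (circles QSC, triangles FISC) and class, with the median as a bar. Dashed lines are the medians of the whole lists, 310 bp in QSC (blue) and 372 bp in FISC (orange); in HoxB the FISC-only intervals have a median of 405 bp and the shared FISC intervals 333 bp.

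At the shared sites both lists placed the interval at nearly the same position. The median distance between midpoints was 60 bp over the 36 sites, against 54 bp over 7280 sites of the genome where 1 interval met 1. They were within 100 bp at 30 of 36 sites (83.3%), against 75.8%. FISC intervals were the wider ones at 18 of 36 sites (50%), against 63.6% in the genome. The log2 ratio of FISC over QSC width had a median of -0.0022 against 0.16. The ranges differed in this, since FISC was the wider at 4 of 4 sites in HoxD, 11 of 21 in HoxC, 2 of 7 in HoxB and 1 of 4 in HoxA. In HoxD the log2 ratios ran from 0.02 to 0.93, and in HoxB from -1.07 to 0.04.

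State-only intervals often had an interval of the other list close by in HoxC and seldom in HoxA. Within 10 kb of an interval of the other list lay 7 of 10 QSC-only and 13 of 19 FISC-only intervals of HoxC, against 1 of 8 and 1 of 7 in HoxA. In HoxB these numbers were 3 of 6 and 4 of 17, and in HoxD 1 of 7 and 1 of 5. Over the whole lists 16.8% of QSC-only and 26.8% of FISC-only intervals had such a neighbour. Within 500 bp of an interval of the other list lay 1 of 31 QSC-only (3.23%) and 3 of 48 FISC-only intervals (6.25%) of the Hox ranges, all in HoxC, against 2.19% and 2.63% of the whole lists. In HoxB the QSC-only interval at chr11:96481416-96481719 lay 0.375 kb from a shared site. The dense spacing of HoxC goes with its many near neighbours, since its sites lay a median of 9.01 kb apart against 41.4 kb in the genome.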

How the data were processed

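The authors deposited 1 list of CTCF intervals per state (chromosome, start, end), with no other value per interval. Per the submitters' processing notes, Picard, HOMER, MACS2 and Bowtie2 2.2.3 were used with build mm9, and the step each tool served is not stated. The calling threshold and the way the 2 ChIP libraries and the input of a state entered its list are likewise not given in the sources. Coordinates are printed from 1.

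Python 3.11.15 with numpy 2.4.6, pandas 2.3.3 and scipy 1.17.1 was used for overlaps, tiles and Fisher's exact tests, and the Fisher-Freeman-Halton test with R 4.3.3. Tiles of 1.1 Mb were placed so that HoxA and HoxD are tiles, and tiles of 1.2 Mb so that HoxB and HoxC are. Tiles with at least 10 state-only intervals (or 10 merged sites for sharing) were tested at an adjusted p of 0.05. Odds ratios are conditional estimates with 95% intervals, and log2 odds ratios have 0.5 added to each cell. The overlap and tile procedures were tested on simulated data. The text names all sites of the inside and the widest flank interval of each class. The ranges, genes and lists were chosen with earlier results of these data known.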

Additional observations from a re-analysis of the deposited data

How the results depend on the processing

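Of 127 recomputed values, 115 kept their direction and side of the threshold, or stayed within the main 95% interval or 1.5 times the main count. With 1 Mb on each side 1 of 4 ranges, HoxB, passed the test of QSC-only against FISC-only (log2 odds ratio 2.12, exact test, adjusted p = 0.00327, which over all alternatives of HoxB ran from there to 0.731). With 0.25 Mb on each side the exact test across ranges gave p = 0.041 (0.0688 to 0.395 in the other alternatives). FISC-only intervals were 71.4% of the state-only intervals of HoxA in the wider 50% of each list. Ratios near 1 changed sign. FISC-only over QSC-only became -0.41 on the log2 scale in HoxA with 0.25 Mb flanks and 0.61 in HoxD in the wider 50%. Shared over state-only became 0.056, 0.33 and 0.40 in HoxA (wider 50%, 0.25 Mb, 1 Mb), 0.25 and 0.50 in HoxB (midpoints within 100 bp, 1 Mb) and -0.68 in HoxD (wider 50%). Of these 8 values, 4 were tested and had adjusted exact p of 0.54 or more, and 4 had no test. The cause was not tested. The comparison with the own chromosome was chosen after seeing the data. Under 10 state-only intervals left no test of their balance in HoxA and HoxD (wider 50%, 0.25 Mb), and under 10 merged sites no test of sharing in HoxA (wider 50%) and HoxD (wider 50%, 0.25 Mb). Without scores in the lists, a stricter calling threshold could not be tried. No paired analysis was possible because there is only 1 list per state, and leaving out single replicates was not possible either. Depth is unknown, which limits what can be said of intervals found in 1 list.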

Other observations

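In HoxD no interval of either list lay between chr2:74554289 and chr2:74802354. This gap of 248 kb ran from the shared site of the inside to the next shared site on the Hoxd1 side. Gaps at least that long made up 8.09% of the 29559 gaps between neighbouring sites of the genome. On the Hoxd13 side a gap of 206 kb ended at the wide FISC-only interval at chr2:74493509-74494087. Gaps of that length or more made up 10.9% of all. HoxA had gaps of 166 kb (14.8% of all gaps at least as long) below and 194 kb (12%) above its group of sites. HoxC had gaps of 158 kb (15.8%) on the Hoxc13 side and 117 kb (22.5%) on the Hoxc4 side of its 4 inside sites. HoxB had its longest gap, 230 kb (9.21%), further out on the Hoxb13 side. The next site beyond the last one of its inside on the Hoxb1 side came after 69.7 kb (35.6%). Gaps of these lengths are thus not rare in the genome. These are values without a test.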
